A study of Macaca mulatta with 45 samples.

Results

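Immediate early genes are the genes that a cell transcribes first after a stimulus, before any new protein has to be made. In neurons they are switched on by synaptic input and calcium through the CREB, SRF and MEF2 factors, and in glia and immune cells by growth factors and cytokines through MAP kinases. Most encode transcription factors, among them the FOS and JUN proteins that form AP-1, the EGR zinc finger proteins, the NR4A nuclear receptors and NPAS4, while ARC acts at the synapse. Their messages are short-lived, so their level in tissue is usually read as a record of the last period before the tissue was fixed or frozen.

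Of the 9 genes chosen by symbol (FOS, FOSB, JUNB, EGR1, EGR2, EGR3, ARC, NR4A1 and NPAS4), 6 were found by symbol in the count table of 30246 gene IDs, namely FOSB (ENSMMUG00000014430), JUNB (ENSMMUG00000005688), EGR2 (ENSMMUG00000010256), ARC (ENSMMUG00000018519), NR4A1 (ENSMMUG00000022922) and NPAS4 (ENSMMUG00000015982). A symbol was available for 15769 of these IDs. FOS, EGR1 and EGR3 were not analysed here. The table holds total RNA libraries from rhesus macaques (Macaca mulatta), a nonhuman primate used to model late radiation injury of the human brain. It covers 3 groups of 5 animals each: fractionated whole brain irradiation (fWBI, 40 Gy given as 8 fractions of 5 Gy, with necropsy after 12 months), total body irradiation (TBI, a single dose of 6.75, 7.2 or 8.05 Gy, with necropsy after 6 to 9 years) and controls whose thorax alone had received 10 Gy, with about 0.1 Gy reaching the brain. Each animal gave 1 library from white matter (centrum semiovale), 1 from hippocampus and 1 from dorsolateral prefrontal cortex (Brodmann area 46), 45 libraries in all. The controls were therefore irradiated animals too, and dose, schedule and time since exposure differ together between fWBI and TBI. The labels describe deep pentobarbital anaesthesia, exsanguination and cold saline perfusion for all animals, and they give no time from anaesthesia to freezing.

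Library totals ran between 6625435 and 12541507 counts. White matter was set apart by its markers as labelled: the mean level of 6 oligodendrocyte and myelin genes averaged 10.7, 11.1 and 11.0 log2 CPM (CPM being read counts scaled to a common library size with edgeR's factors) in fWBI, TBI and control white matter, against 5.88, 5.91 and 6.37 in prefrontal cortex. White matter from control animals 1 and 3 stood apart from every other white matter library. The mean of 13 pan-neuronal genes was 4.23 to 5.18 log2 CPM in the fWBI libraries, 4.41 to 5.12 in the TBI libraries and 4.55 to 4.88 in 3 of the control libraries, but 8.15 and 7.10 in control animals 1 and 3. JUNB overlaps HOOK2, and NR4A1 overlaps 3 long noncoding RNA loci, in RefSeq's annotation of assembly T2T-MMU8v2.0; as the strand setting of the counting is unknown, their reads may include reads of those neighbours. In such bulk tissue, fewer cells of a type and less RNA per cell cannot be told apart.

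**Figure D1:**
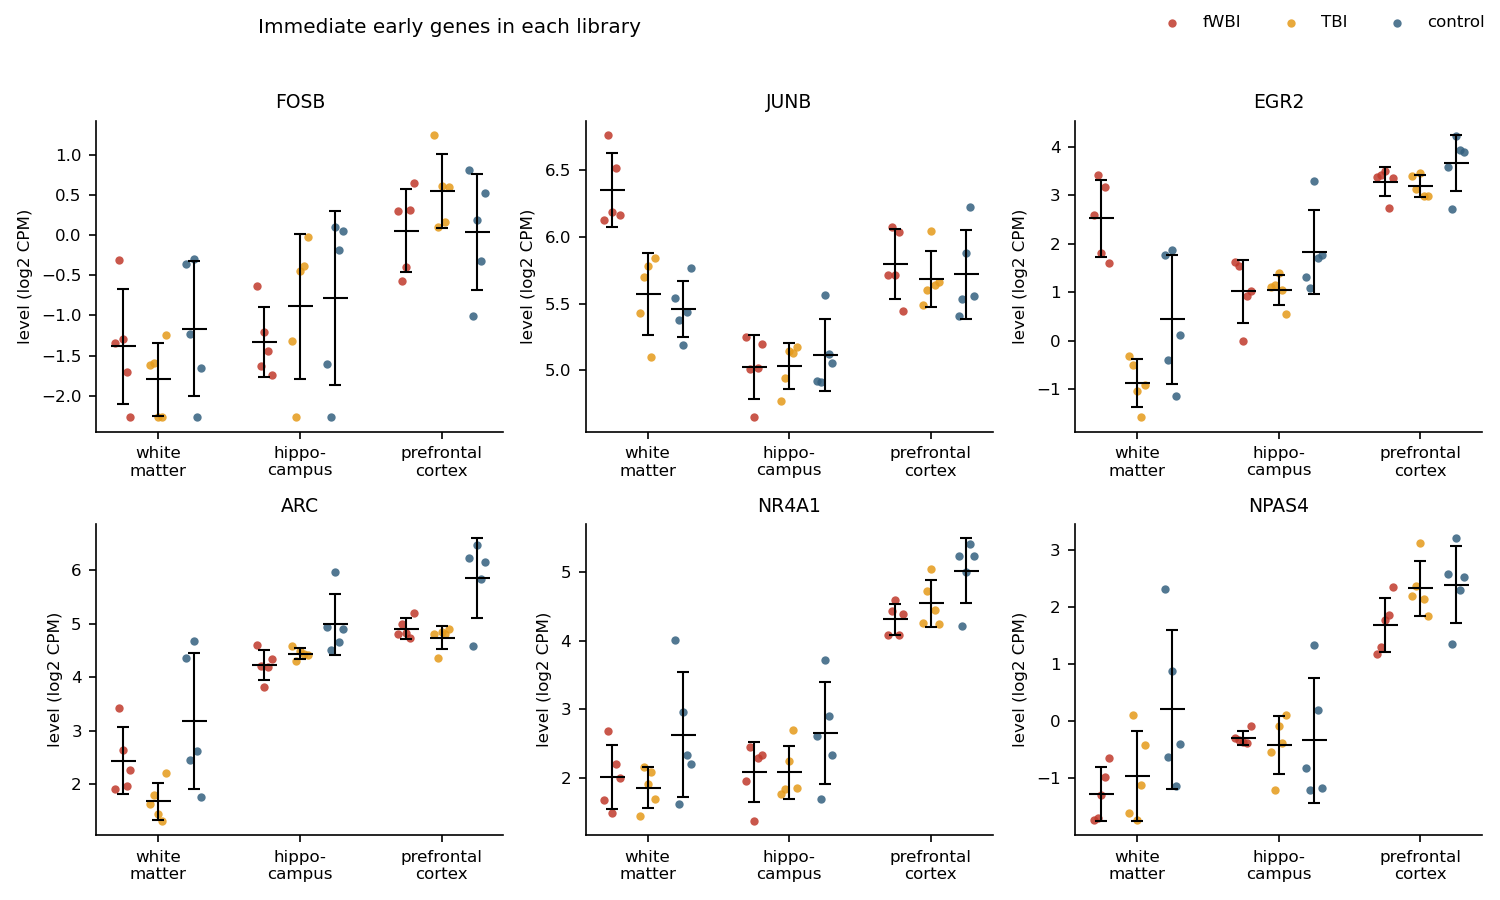
Level of each gene (log2 CPM) in all 45 libraries, with the 3 regions along the horizontal axis and fWBI, TBI and control side by side in each; points are libraries and bars are mean ± SD (n = 5). JUNB is high in all 5 fWBI white matter libraries, EGR2 is separated between fWBI and TBI white matter, and ARC is lower in irradiated than in 4 of the 5 control prefrontal cortex libraries.

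The 3 regions differed for all 6 genes. White matter had less than prefrontal cortex of every gene except JUNB, and hippocampus had less of all 6. For each of the 5 genes other than JUNB, this held within at least 13 of 15 animals in either region. Regions were compared within animals by edgeR's quasi-likelihood test over all 45 libraries, with p-values adjusted by Benjamini-Hochberg over 16614 genes and called under 0.05. In white matter against prefrontal cortex, 5 of the 6 genes were lower. That comparison called 82.5% of all genes, and 41.8% of all genes as lower. In hippocampus against prefrontal cortex all 6 were lower, where 50.8% of all genes were called and 24.5% called lower. The median log2 fold change of the 6 genes was -2.62 in white matter and -1.84 in hippocampus, with medians over all genes of 0.00 and 0.01. With control animals 1 and 3 left out, the log2 differences of the 5 genes from prefrontal cortex lay between -3.60 and -2.73 in white matter and all were called, and JUNB had 0.04.

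ARC encodes a cytoskeletal protein that moves to active synapses and takes part in the removal of AMPA receptors. It had 2.28, 4.42 and 25.4 CPM (lowest, median and highest of 15 libraries) in white matter, 14.0, 22.2 and 62.2 CPM in hippocampus and 20.3, 28.3 and 88.3 CPM in prefrontal cortex. In each of the 15 animals it was lowest in white matter, intermediate in hippocampus and highest in prefrontal cortex. The log2 difference was -2.73 ± 0.17 (SE) for white matter against prefrontal cortex (adjusted p = 3.97e-15), -0.62 ± 0.15 for hippocampus against prefrontal cortex (adjusted p = 0.000771) and -2.11 ± 0.17 for white matter against hippocampus (adjusted p = 1.59e-12). In control animals fitted alone the hippocampal difference was -0.90 and did not pass (adjusted p = 0.0907).

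NR4A1, an orphan nuclear receptor induced by calcium and by growth factors, separated prefrontal cortex from both other regions. Its level was 2.51, 4.04 and 15.9 CPM in white matter, 2.38, 4.68 and 12.9 CPM in hippocampus and 16.7, 21.5 and 42.4 CPM in prefrontal cortex (lowest, median and highest of 15). The prefrontal libraries did not overlap those of either other region. The log2 difference was -2.52 ± 0.15 in white matter (adjusted p = 2.43e-15) and -2.39 ± 0.15 in hippocampus (adjusted p = 9.57e-14), and white matter against hippocampus gave -0.13 ± 0.16 (adjusted p = 0.463).

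NPAS4 is a transcription factor restricted to neurons and induced by calcium entry. It was counted at 1 to 96 reads per library, with medians of 0.299 CPM in white matter, 0.567 CPM in hippocampus and 4.35 CPM in prefrontal cortex. It was higher in prefrontal cortex than in both other regions of all 15 animals, by log2 differences of -3.20 ± 0.28 in white matter (adjusted p = 1.83e-11) and -2.74 ± 0.26 in hippocampus (adjusted p = 8.21e-10). FOSB, an AP-1 subunit whose stable splice form accumulates with repeated stimulation, was the least covered gene, at 0 to 23 reads per library and 0 in 6 libraries. Its log2 difference from prefrontal cortex was -2.44 ± 0.40 in white matter (adjusted p = 2.82e-06) and -1.52 ± 0.35 in hippocampus (adjusted p = 0.000676).

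EGR2 is a zinc finger factor best known for hindbrain patterning and for myelination by Schwann cells. It had 0.126, 0.877 and 10.6 CPM in white matter, 0.794, 2.03 and 9.66 CPM in hippocampus and 6.42, 10.3 and 18.6 CPM in prefrontal cortex. Hippocampus was below prefrontal cortex in 15 of 15 animals, and white matter was below it in 13 of 15. The log2 difference was -2.85 ± 0.22 for white matter (adjusted p = 9.3e-13) and -2.16 ± 0.19 for hippocampus (adjusted p = 2.32e-10).

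JUNB, an AP-1 subunit and the best covered of the 6 genes (219 to 1089 reads per library), departed from this order. It had 34.1, 54.2 and 109 CPM in white matter, 24.9, 33.1 and 47.1 CPM in hippocampus and 42.1, 50.6 and 74.8 CPM in prefrontal cortex. Hippocampus was the lowest region: it was below prefrontal cortex in 15 of 15 animals (-0.68 ± 0.09, adjusted p = 1.13e-07), and white matter was below hippocampus in 2 of 15. White matter against prefrontal cortex gave 0.05 ± 0.08 (adjusted p = 0.596), with 0.57 ± 0.14 in fWBI animals, -0.13 ± 0.15 in TBI animals and -0.30 ± 0.15 in control animals.

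White matter against hippocampus divided the genes. JUNB was higher (0.73 ± 0.09, adjusted p = 6.43e-09), ARC and EGR2 were lower (EGR2 -0.68 ± 0.25, adjusted p = 0.0141), and FOSB, NR4A1 and NPAS4 did not pass. The comparison called 81.4% of all genes, 40.4% lower and 41% higher. EGR2 did not behave alike in the 3 groups of animals, with a white matter minus hippocampus difference of 1.61 ± 0.35 in fWBI, -2.35 ± 0.52 in TBI and -1.31 ± 0.39 in control animals. JUNB was higher by 1.32 ± 0.15 in fWBI, 0.55 ± 0.15 in TBI and 0.32 ± 0.15 in control animals, and in control animals fitted alone its difference did not pass (0.34, adjusted p = 0.113). With control animals 1 and 3 left out, FOSB (-1.35, adjusted p = 0.0286) and NPAS4 (-0.76, adjusted p = 0.0394) passed as lower as well.

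Most late effectors and upstream activators of the wider activity program were lower in white matter as well. For the counts that follow, white matter against prefrontal cortex called 82.5% of all genes, and 41.8% of all genes as lower. Of 14 late effector genes of neuronal activity that could be tested, 13 were lower and 1 was higher in white matter against prefrontal cortex, among them the secreted peptide precursor VGF (-4.13), the synaptic calmodulin-binding protein NRGN (-3.67) and the kinase PLK2 (-2.91). Of 18 upstream activators, 15 were lower and 2 higher, including the calcium-dependent kinase CAMK4 (-3.50), MEF2C (-3.25) and the SRF partner ELK1 (-2.36). Among 12 other immediate early regulators the picture was mixed, with 7 lower and 3 higher: FOSL2, another AP-1 subunit, had -2.06, and ATF3, a stress-induced member of the ATF family, had 2.40. Among 6 feedback regulators, 5 were lower and 1 higher. The 5 AP-1 and EGR partners were divided, with 2 lower and 3 higher (median 0.30). The counts without control animals 1 and 3 were 13 lower and 1 higher, 15 and 2, 6 and 3, 5 and 1, and 2 and 3. Neuronal markers moved with the late effectors and upstream activators: all 13 pan-neuronal genes (median -3.30) and all 5 excitatory neuron genes (median -3.67) were lower in the same comparison. NRGN belongs to the excitatory list too, and the part of neuron content in these differences was not tested. In hippocampus against prefrontal cortex, 7 of the 14 late effectors were lower and 4 higher, and the median of the list was -0.22. Of all genes, 50.8% were called there and 24.5% called lower. NR4A3, the close relative of NR4A1, was higher in hippocampus (1.26 ± 0.18, adjusted p = 1.23e-06), the opposite of NR4A1.

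Irradiation was compared within each region by the same test on 15 libraries, with 1 library per animal. FOSB and NPAS4 fell below the count filter in white matter and hippocampus, so 4 of the 6 genes were tested there and 6 in prefrontal cortex. The p-values rest on an estimate of spread between animals that the 3 groups of 5 share. That spread was larger in the controls for most of the genes, as given below, so a fit of only the compared groups can change a call. TBI and fWBI share their control libraries, so their results against control are not independent of each other.

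In fWBI white matter JUNB and EGR2 rose, and ARC and NR4A1 did not pass. Thus 2 of 4 genes tested were called, both higher, where 16.8% of all genes were called and 8.82% called higher. EGR2 passed the count filter in white matter only through its fWBI libraries. They held 33 to 106 reads, against 1 to 5 in TBI and 2 to 34 (median 8) in control libraries. Its place among the 4 genes tested therefore depends on its level in fWBI. The median log2 fold change of the 4 genes was 0.07, against -0.03 over all genes.

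JUNB had 69.8, 109, 72.8, 91.5 and 71.7 CPM in fWBI white matter, 42.8, 51.8, 54.9, 34.1 and 57.1 CPM in TBI white matter and 46.4, 41.3, 36.3, 43.1 and 54.2 CPM in control white matter. Every fWBI library lay above every library of the other two groups, which overlapped each other. How many of all genes separate groups or regions in this way was not counted. The log2 fold change was 0.94 ± 0.17 against control (adjusted p = 0.000962) and 0.81 ± 0.16 against TBI (adjusted p = 0.00584), while TBI against control gave 0.13 ± 0.16 (adjusted p = 0.73). Without control white matter 1 and 3 the increase over control was 0.88 (adjusted p = 0.00754), and it passed with any 1 library left out. Among all 9 groups, JUNB in fWBI white matter was the highest (6.36 ± 0.28 log2 CPM, SD), beyond its spread from the next group, fWBI prefrontal cortex (5.80 ± 0.26).

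EGR2 had 5.86, 10.6, 3.31, 8.76 and 2.85 CPM in fWBI white matter, 0.598, 0.501, 0.280, 0.126 and 0.323 CPM in TBI white matter and 3.19, 0.550, 3.44, 0.248 and 0.877 CPM in control white matter. The TBI values rest on 1 to 5 reads a library and the control values on 2 to 34. All fWBI libraries were above all TBI libraries, and they overlapped the controls only through control animals 1 and 3, the libraries with high neuronal markers. The log2 fold change against control was 1.93 ± 0.56 (adjusted p = 0.0261). Without those 2 controls it was 3.48 (adjusted p = 0.00104), and with the pan-neuronal level as a covariate 3.00 (adjusted p = 0.00278). Those 2 held the highest EGR2 values of the controls, so leaving them out raises the fold change and narrows the control spread by construction. With all controls kept, the call was lost without fWBI animal 2 (adjusted p = 0.0775), fWBI animal 4 (0.059) or control animal 5 (0.0506), or with TBI libraries out of the fit (0.0766).

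Against TBI, EGR2 was higher in fWBI white matter by 4.09 ± 0.67 on the log2 scale (adjusted p = 0.00123), the largest difference of any of the 6 genes in any irradiation comparison, and the call held without any 1 library. With JUNB it made 2 of 4 genes called, both higher, where 7.36% of all genes were called and 4.82% called higher. Here too EGR2 was among the genes tested only through its fWBI libraries. ARC (0.91 ± 0.52, adjusted p = 0.365) and NR4A1 (0.22 ± 0.40, adjusted p = 0.824) did not pass.

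Microglia and macrophage markers moved with these increases. The mean of 6 such genes was 6.31 to 6.99 log2 CPM in fWBI white matter, 5.84 to 6.20 in TBI and 4.64 to 5.63 in control white matter, and their summed level was 839 to 1020 CPM, 490.3 to 610.9 CPM and 269 to 473 CPM in those groups. None of the 6 was at 0 in any white matter library. In fWBI against control 4 of the 6 rose and 1 fell; CD68, a lysosomal protein of phagocytes, rose by 3.70, CD74, the invariant chain of MHC class II, by 3.05 and the complement gene C1QC by 2.80 on the log2 scale. The same 5 genes were called without control animals 1 and 3, and these 3 had 3.43, 2.97 and 2.55. P2RY12, a receptor of resting microglia, was lower in fWBI than in TBI white matter (-1.57, adjusted p = 0.000276). Markers of other cell types moved too. Of 6 astrocyte genes 2 rose and 1 fell, with 1.33 for the filament protein GFAP and -2.25 for the glutamate transporter SLC1A2. Of 4 endothelial genes 2 rose and 1 fell, with 1.55 for the adhesion protein PECAM1. PTPRC, a leukocyte surface protein and 1 of 2 blood cell genes tested, rose by 1.85, and the summed level of that list was 75.5 to 181 CPM in fWBI, 51.3 to 199.8 CPM in TBI and 22.3 to 46.9 CPM in control white matter. GFAP (1.19), SLC1A2 (-1.97), PECAM1 (1.61) and PTPRC (1.61) were also called without control animals 1 and 3. The part of these cells in the JUNB and EGR2 levels was not tested.

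**Figure D2:**
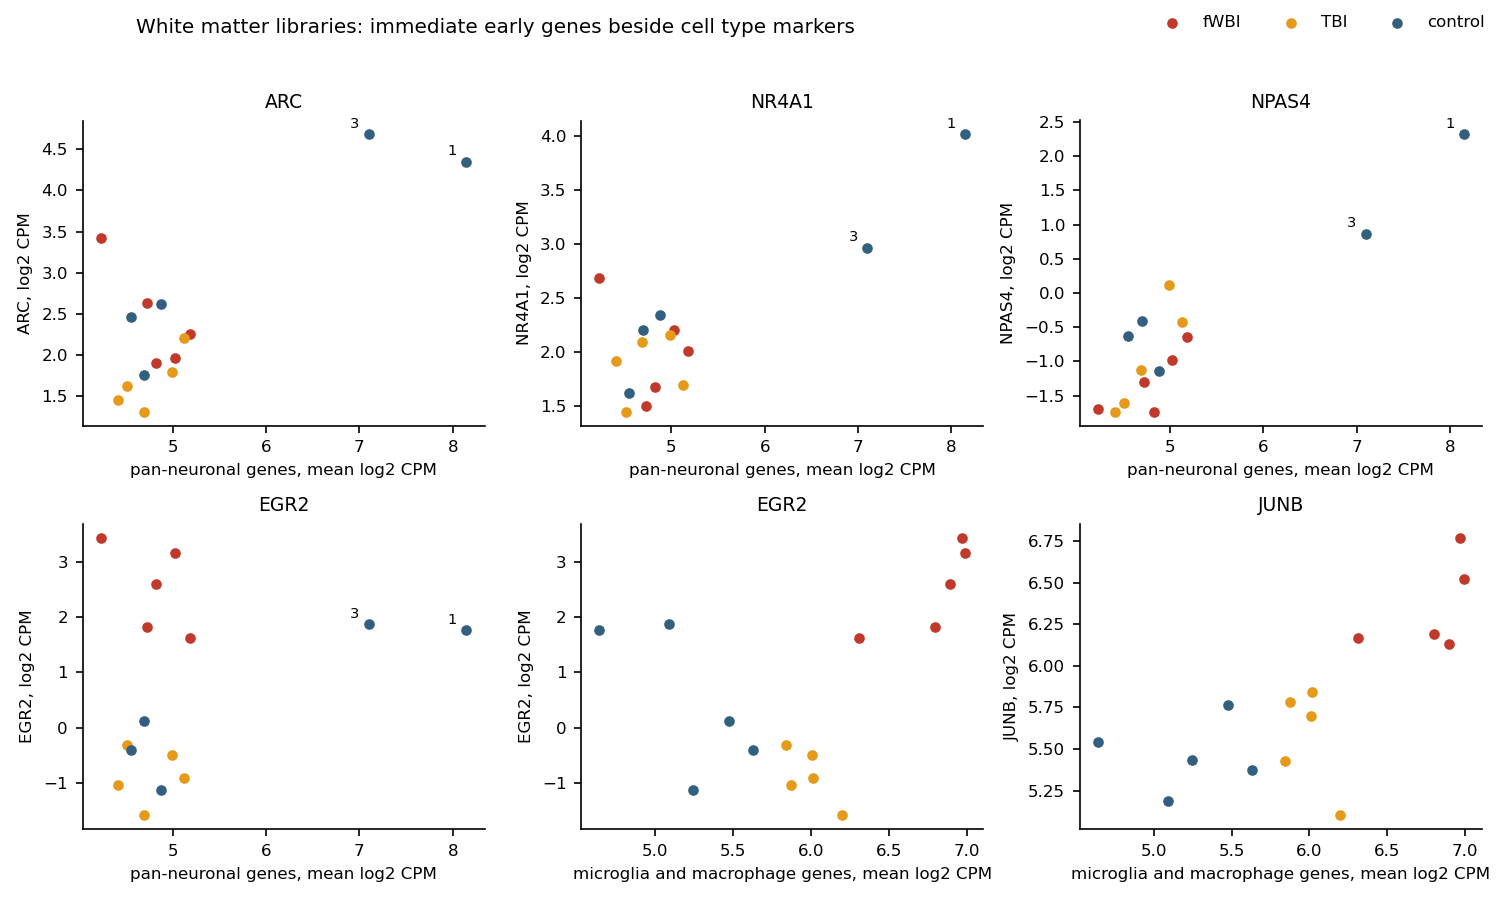
Level of ARC, NR4A1, NPAS4, EGR2 and JUNB (log2 CPM, vertical) in the 15 white matter libraries against the mean level of 13 pan-neuronal genes or 6 microglia and macrophage genes (mean log2 CPM, horizontal); points are libraries, coloured by fWBI, TBI and control, and control animals 1 and 3 are numbered in the pan-neuronal panels. Control 1 and 3 sit apart at a pan-neuronal level of 8.15 and 7.10 with high ARC, and the fWBI libraries sit at a microglia and macrophage level of 6.31 to 6.99 with high EGR2 and JUNB.

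Levels of ARC, NR4A1 and NPAS4 in white matter were highest in control animals 1 and 3, whose neuronal markers were high. ARC had 3.54, 10.5, 6.02, 3.68 and 4.58 CPM in fWBI white matter, 2.87, 3.25, 2.52, 2.28 and 4.42 CPM in TBI and 20.2, 5.28, 25.4, 5.96 and 3.18 CPM in control white matter. The control values of 20.2 and 25.4 CPM belong to animals 1 and 3, and the other 3 controls lay among the irradiated libraries. With all libraries ARC gave -1.04 ± 0.49 in fWBI (adjusted p = 0.171) and -1.95 ± 0.52 in TBI (adjusted p = 0.135) against control, and without the 2 controls 0.28 (adjusted p = 0.73) and -0.64 (adjusted p = 0.791).

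NR4A1 had 2.98, 6.20, 2.61, 4.38 and 3.80 CPM in fWBI white matter, 2.51, 4.25, 3.55, 4.04 and 3.02 CPM in TBI and 15.9, 2.86, 7.60, 4.84 and 4.39 CPM in control white matter. Control animals 1 and 3 were again the highest. The log2 fold change was -0.80 ± 0.39 in fWBI (adjusted p = 0.184) and 0.03 without the 2 controls (adjusted p = 0.974). NPAS4, under the filter, had 1 to 5 reads in fWBI white matter, 1 to 7 in TBI and 2 to 42 in control white matter, the 2 highest being animals 1 and 3 with 42 and 16 reads.

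In TBI against control white matter none of the 4 genes was called, and 0.0722% of all genes were. EGR2 had the lowest log2 fold change there (-2.15 ± 0.70, adjusted p = 0.14). Without control animals 1 and 3 it was -0.62 (adjusted p = 0.919), NR4A1 had -0.20, against -1.02 with them, and JUNB had 0.07. In edgeR's quasi-likelihood test over all genes EGR2 (unadjusted p = 0.00731), ARC (unadjusted p = 0.00172) and NR4A1 (unadjusted p = 0.0196) were under 0.05 before adjustment, as were 2751 of 15235 genes. DESeq2 called ARC (adjusted p = 0.0129) and EGR2 (adjusted p = 0.0402) among 740 genes.

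In prefrontal cortex ARC was lower after fWBI. It had 27.7, 31.8, 28.0, 26.2 and 36.4 CPM in fWBI animals, 27.9, 20.3, 28.3, 27.6 and 29.5 CPM in TBI animals and 75.0, 23.8, 88.3, 56.7 and 71.0 CPM in controls. All 10 irradiated libraries were under 4 of the 5 controls, and control animal 2, at 23.8 CPM, lay among them. The log2 fold change was -1.09 ± 0.24 in fWBI (adjusted p = 0.0396), the only one of 6 genes called there, where 1.17% of all genes were called and 0.367% called lower. TBI gave -1.24 ± 0.25 (adjusted p = 0.081), which did not pass, and fWBI against TBI gave 0.15 ± 0.24 (adjusted p = 0.9999).

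The fWBI call stands near the threshold. It was kept without control animal 2 (-1.30, adjusted p = 0.000248) and lost without any 1 of the other 9 libraries (log2 fold change -0.94 to -1.17, adjusted p between 0.0515 and 0.104). TBI against control passed without control animal 2 (-1.45, adjusted p = 0.000423). Pan-neuronal genes averaged 8.32 ± 0.05, 8.36 ± 0.12 and 8.43 ± 0.06 log2 CPM (SD) in fWBI, TBI and control prefrontal cortex. None of the 13 was called in either comparison with control, where 1.17% of all genes were called in fWBI and 0% in TBI. The excitatory neuron list averaged 7.12 ± 0.26, 7.06 ± 0.18 and 7.29 ± 0.34. Its median log2 fold change was -0.30 in fWBI and -0.17 in TBI. The oligodendrocyte and myelin list averaged 5.88 ± 0.40, 5.91 ± 0.49 and 6.37 ± 0.85. No gene of either list was called. Some glial markers did move: 2 of 6 astrocyte genes rose after fWBI, GFAP by 1.08 and the water channel AQP4 by 0.60. The mean of the astrocyte list was 8.69 ± 0.07, 8.58 ± 0.13 and 8.28 ± 0.14 log2 CPM in fWBI, TBI and control prefrontal cortex. Of 6 microglia and macrophage genes CD74 rose (2.82) and P2RY12 fell (-1.75), with list means of 4.09 ± 0.14, 3.67 ± 0.40 and 3.56 ± 0.19. The part of any of these cell types in the ARC difference was not tested.

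NR4A1 had 16.8, 21.4, 24.0, 16.7 and 20.7 CPM in fWBI prefrontal cortex, 19.0, 26.2, 32.8, 21.5 and 18.7 CPM in TBI and 37.5, 18.4, 31.9, 42.4 and 37.6 CPM in control prefrontal cortex. Control animal 2 was again the lowest control and the only one within the fWBI range. The log2 fold change was -0.77 ± 0.21 in fWBI (adjusted p = 0.092) and -0.51 ± 0.21 in TBI (adjusted p = 0.347), and without control animal 2 the fWBI difference passed (-0.93, adjusted p = 0.0143).

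NPAS4 had 2.05, 2.25, 3.21, 3.41 and 4.91 CPM in fWBI prefrontal cortex, 4.35, 4.94, 8.45, 4.17 and 3.37 CPM in TBI and 5.73, 2.33, 9.00, 4.73 and 5.51 CPM in controls. The groups overlapped, with all 5 fWBI libraries under the control mean (-0.81 ± 0.34, adjusted p = 0.306). EGR2 gave -0.47 ± 0.23 in fWBI (adjusted p = 0.381) and -0.57 ± 0.23 in TBI (adjusted p = 0.348). JUNB (0.05 ± 0.16) and FOSB (-0.08 ± 0.43) were near 0 in fWBI, and no gene was called in TBI against control, where the edgeR test called 0% of all genes, with 1826 of 15531 at an unadjusted p under 0.05 and 254 called by DESeq2. DESeq2 called ARC in that comparison (adjusted p = 0.000745). None of the 6 was called in fWBI against TBI, where 0.29% of all genes were and no member had an unadjusted p under 0.05.

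In hippocampus no gene was called after fWBI or TBI, where 0.742% and 0% of all genes were called by edgeR (1661 of 15357 at an unadjusted p under 0.05 in TBI, and 60 by DESeq2). ARC had 24.0, 18.3, 14.0, 18.2 and 19.9 CPM in fWBI hippocampus, 23.6, 19.5, 22.2, 21.3 and 21.2 CPM in TBI and 30.3, 22.5, 62.2, 25.1 and 29.5 CPM in controls. Animal 3 was the highest control at 62.2 CPM, and 4 of 5 fWBI libraries were under all controls. The log2 fold change was -0.86 ± 0.23 in fWBI (unadjusted p = 0.00164, adjusted p = 0.119) and -0.70 ± 0.23 in TBI (adjusted p = 0.349), and without control animal 3 the fWBI value was -0.51 (adjusted p = 0.126). In fWBI 1734 of 15357 genes were under 0.05 before adjustment, and DESeq2 called the ARC difference (adjusted p = 0.0215) among 277 genes.

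EGR2 gave -1.04 ± 0.42 in fWBI (unadjusted p = 0.0233, adjusted p = 0.341) and -1.14 ± 0.42 in TBI hippocampus (adjusted p = 0.387), and NR4A1 gave -0.72 ± 0.33 (unadjusted p = 0.0458) and -0.75 ± 0.33. JUNB gave -0.11 ± 0.14 and -0.13 ± 0.14. In fWBI against TBI hippocampus the 4 values lay between -0.16 and 0.09 and none was called by edgeR, with no unadjusted p under 0.05, where 0.339% of all genes were called.

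**Figure D3:**
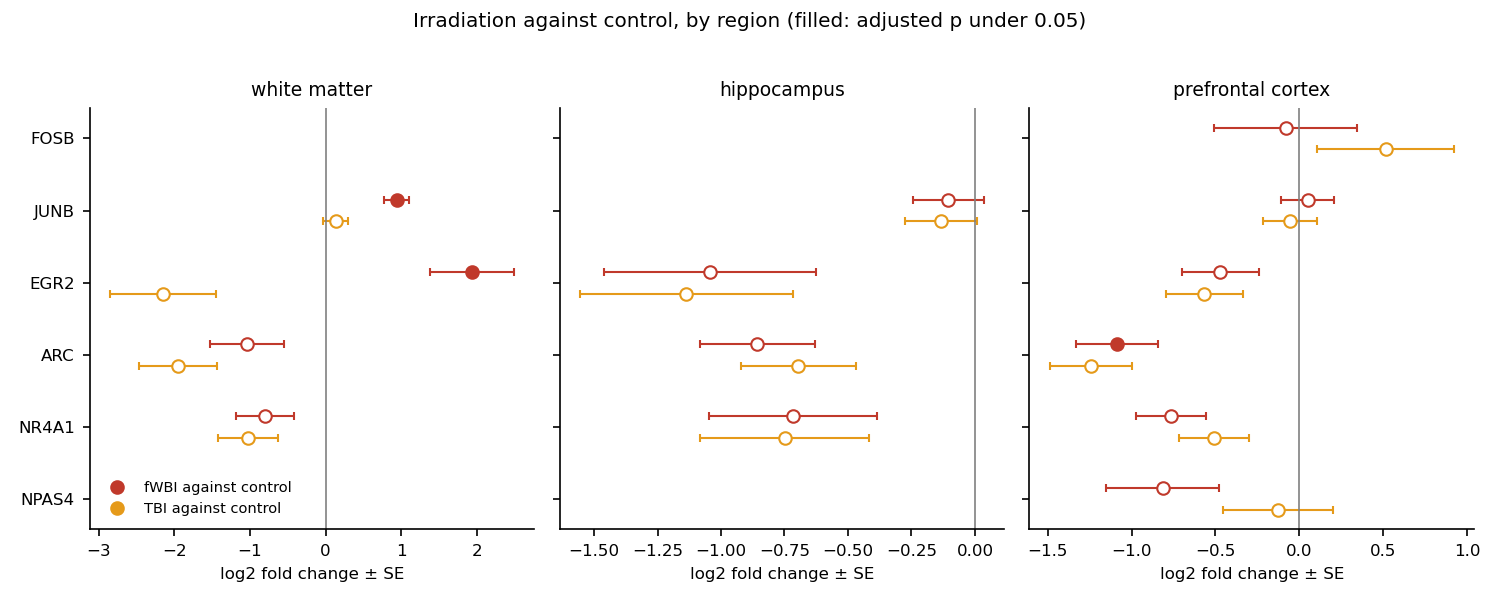
Log2 fold change ± SE of each tested gene for fWBI against control and TBI against control (shared controls), with 1 panel per region and its own horizontal scale; filled points passed an adjusted p of 0.05. JUNB and EGR2 in fWBI white matter and ARC in fWBI prefrontal cortex are the filled points, and FOSB and NPAS4 are blank in white matter and hippocampus, where they were below the count filter.

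The fWBI effect differed between regions for JUNB and EGR2. A test that the effect was equal in all 3 regions, fitted over 45 libraries with the animal as a block, gave an adjusted p of 0.00251 for JUNB and 0.000443 for EGR2, 2 of 6 genes where 9.1% of all genes were called. The fWBI effect on EGR2 was larger in white matter than in prefrontal cortex by 2.45 ± 0.48 and than in hippocampus by 2.91 ± 0.52 on the log2 scale. For JUNB these differences were 0.87 ± 0.21 and 1.00 ± 0.21. Without control animals 1 and 3, whose white matter held the highest EGR2 values of the controls, the adjusted p was 8.02e-05 for EGR2 and 0.0188 for JUNB.

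For ARC the effect did not differ detectably between regions (adjusted p = 0.938), with white matter minus prefrontal cortex at 0.19 ± 0.39 and hippocampus minus prefrontal cortex at 0.26 ± 0.36. No gene was called in the same test for TBI, where 0.00602% of all genes were called, and ARC (unadjusted p = 0.0386) was the only one of the 6 under 0.05 before adjustment, where 1922 genes were. NPAS4 had an unadjusted p of 0.0404 for fWBI (adjusted p = 0.212), where 3424 genes were under 0.05.

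Of 12 other immediate early regulators tested in the white matter of fWBI animals against control, 3 rose and the other 9 did not pass, where 16.8% of all genes were called and 8.82% called higher. The 3 were KLF6, a zinc finger factor of injury responses (1.48 ± 0.15, adjusted p = 1.19e-05), ATF3 (1.31 ± 0.26, adjusted p = 0.0021) and MYC, a growth regulator (0.90 ± 0.17, adjusted p = 0.00184), and the median of the 12 was 0.51. Leaving out control animals 1 and 3, they had 1.44, 1.10 and 0.81 and all 3 were called, among 6 of the 12, where 7.29% of all genes were called higher. The microglia and macrophage markers given above rose in the same libraries, and their part here was not tested. All 3 were also higher than in TBI white matter, by 1.15, 1.36 and 0.68. Among 6 feedback regulators, SPRY4, an inhibitor of receptor tyrosine kinase signalling, fell (-1.87 ± 0.35, adjusted p = 0.00146, and -1.30 without the 2 controls, adjusted p = 0.0158). Of 13 late effectors 1 rose and 3 fell: GADD45B, a stress and activity gene, rose by 2.22 ± 0.47 (adjusted p = 0.00374), and HOMER1, a postsynaptic scaffold, fell by 1.33 and NRGN fell by 2.26 on the log2 scale. The mean of the list was 3.10 to 3.85 log2 CPM in fWBI and 2.72 to 5.74 log2 CPM in control white matter, and that of the excitatory neuron genes, 4 of 5 of which fell, was 1.83 to 3.36 in fWBI and 2.69 to 6.70 in control white matter. In the fit without control animals 1 and 3, GADD45B (2.68, adjusted p = 0.00522) and HOMER1 (-1.24, adjusted p = 0.00688) were called and NRGN was not (-0.73, adjusted p = 0.0837).

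Of 18 upstream activators 7 fell and none rose, with 16.8% of all genes called, including the BDNF receptor NTRK2 (-0.84 ± 0.12, adjusted p = 0.000158), the calcium channel CACNA1C (-1.22) and the NMDA receptor subunit GRIN2B (-2.06). The mean of this list was 4.75 to 5.10 log2 CPM in fWBI and 5.04 to 6.57 in control white matter. Without control animals 1 and 3 only 1 of the 18 fell, NTRK2 (-0.79, adjusted p = 0.00114), and 1 rose, MEF2A (a MEF2 factor, named after its value was seen), where 10.8% of all genes were called. CACNA1C (-0.52, adjusted p = 0.0599) and GRIN2B (-0.57, adjusted p = 0.0901) did not pass. Pan-neuronal genes moved with this group: 7 of 13 fell in the same comparison, with a median of -2.17, and none did without control animals 1 and 3 (median 0.24). In fWBI against TBI, where none of the 13 was called (median 0.06), 1 upstream activator, NTRK2, was called (-0.79, adjusted p = 0.000507). Of 5 AP-1 and EGR partners, BATF3, which pairs with JUN proteins, fell in fWBI white matter (-1.01 ± 0.24, adjusted p = 0.00872, and -1.07 without the 2 controls, adjusted p = 0.0268) and in fWBI prefrontal cortex (-1.47 ± 0.30, adjusted p = 0.0251).

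BATF3 was the only gene of the 5 lists that edgeR called outside white matter in the irradiation comparisons, and it called none in TBI against control in any region. HMOX1, the heme-degrading enzyme and 1 of 5 heat shock and stress genes tested, rose in fWBI white matter (1.58 ± 0.30, adjusted p = 0.00171, and 1.34 without the 2 controls, adjusted p = 0.0162), and the other 4 were not called.

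Spread between animals was larger in the controls than in the irradiated groups for most of the genes. The SD of log2 CPM within a group was largest in the controls for 17 of the 18 gene and region combinations, JUNB in white matter being the exception; over all genes the controls had the largest SD for 52.7% in white matter, 52.4% in prefrontal cortex and 49.7% in hippocampus. In white matter without control animals 1 and 3, the libraries with high neuronal markers, the control SD was the largest for 0 of the 6 genes. That SD is over 3 libraries, against 5 in the irradiated groups. Control animals 1 and 3 held the highest control values there of every gene but JUNB, so leaving them out narrows the spread by construction. The median SD of these genes was 0.44 in fWBI, 0.34 in TBI and 0.74 in control groups. ARC in prefrontal cortex had an SD of 0.19 in fWBI, 0.22 in TBI and 0.74 in control animals. Control animal 2 had the lowest value of its group for 6 of 6 genes in hippocampus and 5 of 6 in prefrontal cortex, but for 1 of 6 in white matter, where control animal 4 had 3 of 6. Control animal 3 had the highest for 6 of 6 in hippocampus and for 3 of 6 in each of the other two regions. In fWBI white matter, animal 2 had the highest value for 5 of 6.

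**Figure D4:**
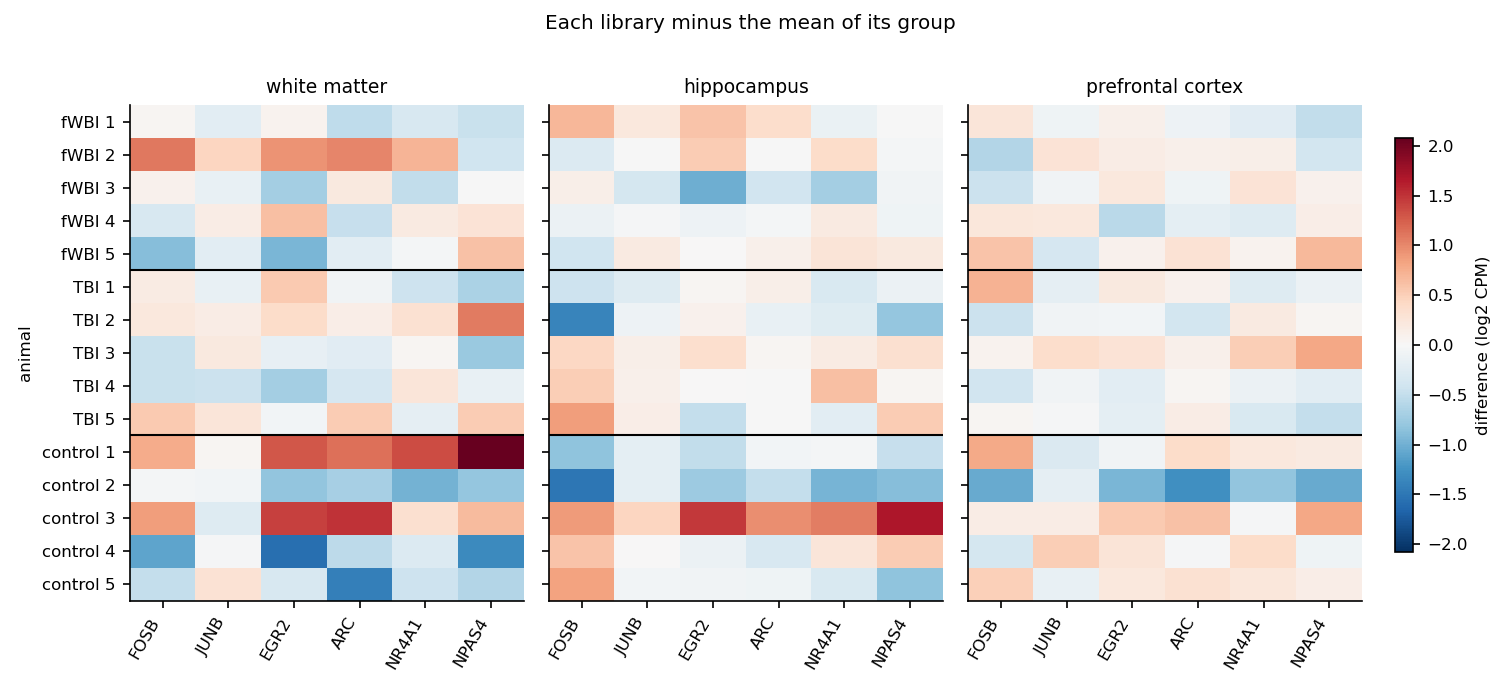
Each library's log2 CPM minus the mean of its group, for the 6 genes (columns) and 15 animals (lines, fWBI above TBI above control) in the 3 regions; red is above and blue below the group mean. The control block holds the deepest colours, with control animal 3 highest for all 6 genes and control animal 2 lowest for all 6 in hippocampus.

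The spread was not alike among the genes. Between animals of a group, the biological coefficient of variation of EGR2 was 0.61 in white matter, higher than in 96.8% of genes, and that of ARC 0.53 (94.7%), against a median of 0.208 over all genes. JUNB was near the middle of all genes, at 0.19 in white matter, above 42.6% of genes, 0.16 in hippocampus (48.4%) and 0.18 in prefrontal cortex (52.3%). The share of the variance around the group means that lay between animals rather than between the regions of 1 animal was 0.42 for NR4A1, 0.39 for ARC and 0.33 for EGR2, against a median of 0.149 over all genes; it was 0.20 for NPAS4, 0.15 for JUNB and 0.01 for FOSB.

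As deviations from the group means over 45 libraries, which share 15 animals, EGR2 and ARC correlated at r = 0.71, NR4A1 and NPAS4 at 0.69 and EGR2 and NR4A1 at 0.69. JUNB was the least tied, with r between 0.17 and 0.41 to the other 5. These correlations are descriptions, and depth, dissection and the animal are shared by the points.

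Among 11993 other named genes, those whose deviations most resembled the mean of the 6 were DGKA (r = 0.78), NR4A2 (0.77), PRKCB (0.77), CAMKK2 (0.74), NR4A3 (0.74), GRAMD1B, RAB15, SH3RF1, an ID named U6 and SSBP3 (0.72), over 45 libraries. The U6 name covers many near-identical small RNA copies, so this ID is uncertain. NR4A2 and NR4A3 are the relatives of NR4A1 and belong to the list of other immediate early regulators. ACAD10, CANX and NOC3L had the most negative r, between -0.68 and -0.70. The median r of all these genes was 0.00, and the highest 5% lay above 0.53. The mean of the 6 deviated by 1.11 in control white matter 1 and 0.75 in control white matter 3, the libraries with high neuronal markers. The part of neuron content in this ranking was not tested.

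The order of the 9 groups differed by gene. ARC averaged 4.91 ± 0.19, 4.74 ± 0.22 and 5.85 ± 0.74 log2 CPM (SD, n = 5) in fWBI, TBI and control prefrontal cortex, 4.23 ± 0.28, 4.44 ± 0.10 and 4.99 ± 0.57 in hippocampus and 2.44 ± 0.62, 1.68 ± 0.35 and 3.17 ± 1.27 in white matter. Control prefrontal cortex led by a step larger than the SD of either neighbour, and control hippocampus, fWBI prefrontal cortex and TBI prefrontal cortex came next without differing from each other beyond their spread.

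EGR2 averaged 3.29 ± 0.31, 3.20 ± 0.22 and 3.68 ± 0.58 log2 CPM in fWBI, TBI and control prefrontal cortex and 2.53 ± 0.80, -0.87 ± 0.50 and 0.44 ± 1.33 in white matter. The fWBI white matter group came directly after the prefrontal groups and ahead of the hippocampal groups, and no step between neighbours exceeded the larger of their SDs. NR4A1 averaged 4.32 ± 0.23, 4.54 ± 0.34 and 5.02 ± 0.47 in the same 3 prefrontal groups, and the other 6 groups lay between 1.86 and 2.65 with no step beyond the spread. For NPAS4 the prefrontal means were 1.69 ± 0.47, 2.33 ± 0.48 and 2.39 ± 0.67, and the next group in order was control white matter (0.21 ± 1.39). FOSB was between 0.04 and 0.55 in the prefrontal groups and between -1.80 and -0.78 elsewhere, again with no step beyond the spread.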

How the data were processed

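RNA from 45 tissue samples was sequenced after removal of ribosomal RNA with a stranded total RNA kit, per the labels' protocols, and RNA integrity numbers ran between 7.1 and 9.3. A single table of unnormalised gene counts, deposited by the authors, was the source of every value. STAR, featureCounts, FastQC and DESeq2 stand in the submitters' processing notes with no version, while the genome build, annotation and strand setting were not given in the sources used here. Of 30246 gene IDs, 15769 were paired with a symbol by the reference table of gene names.

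Counts were tested as deposited with edgeR 4.0.16 in R 4.3.3 (TMM scaling, filterByExpr with a minimum count of 10, quasi-likelihood test, Benjamini-Hochberg over all genes, threshold 0.05). Each region was fitted on its 15 libraries. Regions, and the irradiation effect by region, were fitted on 45 libraries with the animal as a block, since the labels tie the 3 libraries of an animal; across regions the libraries of 1 animal deviated together (median r = 0.29 over 45 pairs, 41 above 0.1). An SE is the fold change divided by the root of the F statistic. CPM used TMM library sizes, and log2 CPM added a prior count of 2. The scripts were tested on simulated counts.

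Alternatives were DESeq2 1.42.0, its size factors, 2 other count filters, only the compared groups, a replicate block, a covariate for tissue makeup and leaving out libraries. Leaving out control animals 1 and 3 was chosen with earlier results of these data known. Its use for the list counts was added after seeing the data. The genes, gene lists and marker lists were chosen with earlier results of these data known. All 6 genes present are described; from each list, counts and at most the 3 genes with the smallest p per comparison are given. Counting error is largest for FOSB and NPAS4 over all libraries. In TBI white matter EGR2 was as sparse as NPAS4, with a mean of 3.2 reads a library for each.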

Additional observations from a re-analysis of the deposited data

Results flagged for a closer look

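EGR2 in fWBI prefrontal cortex had 1 library far below the rest of its group: animal 4 was at 2.75 log2 CPM and the other 4 lay between 3.37 and 3.50. ARC in TBI prefrontal cortex had a low library as well, animal 2 at 4.36 log2 CPM, with the other 4 between 4.80 and 4.89. Both gaps, measured against the whole range of the group, were past Dixon's critical value of 0.71 for 5 samples. In all 54 groups of 1 gene, 1 region and 1 treatment were tested, 2 were past it, and chance gives about 1 in 20.

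The fWBI effect differed between the 3 regions by a test of the difference itself for JUNB (adjusted p = 0.00251) and EGR2 (adjusted p = 0.000443), edgeR's quasi-likelihood test over 45 libraries. The fWBI effect on JUNB was 0.87 ± 0.21 larger in white matter than in prefrontal cortex and that on EGR2 2.45 ± 0.48 larger, on the log2 scale. In white matter 5 of 5 fWBI animals were above the control mean for both genes. Microglia and macrophage markers were also higher in fWBI white matter, and their part in either difference was not tested.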

How the results depend on the processing

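Counts of the 6 genes called changed under these settings. With a covariate for tissue makeup (the pan-neuronal level in white matter, the myelin level elsewhere), 1 was called in fWBI hippocampus (ARC) and 2 in fWBI prefrontal cortex (ARC and NR4A1); DESeq2 gave the same counts of 1 and 2, and called 1 in TBI prefrontal cortex and 2 in TBI white matter. Requiring a mean of at least 50 counts left 0 in fWBI prefrontal cortex, where ARC had -1.10 (adjusted p = 0.0537). It left 1 in fWBI white matter, 1 in fWBI against TBI white matter and 3 in white matter against prefrontal cortex, where EGR2 in the first 2 and FOSB and NPAS4 in the last fell below that filter. With only the 2 groups compared, 0 were called in fWBI prefrontal cortex and 1 in fWBI white matter. Without control animals 1 and 3, 5 were called in white matter against hippocampus, against 3 with them. With 1 library left out at a time, counts ran from 0 to 1 in fWBI hippocampus, 0 to 2 in fWBI prefrontal cortex, 1 to 2 in fWBI white matter, 0 to 1 in TBI prefrontal cortex and 3 to 6 in white matter against hippocampus. Where no construction of a setting is named, the cause was not tested.

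Animal numbers were treated as names only between treatment groups. In no comparison did all 5 same-numbered pairs deviate together above r = 0.1. In fWBI against control prefrontal cortex, however, 3 of 5 pairs did, with a median r of 0.30. There 3 of 5 fWBI libraries correlated most with the control of their own number. Whether same-numbered animals share a batch or other feature was not tested. With the number as a replicate block, 1 gene was called in TBI prefrontal cortex (ARC, -1.19, adjusted p = 0.0455), and no other call among the 6 genes changed; without the animal block, no region call changed.

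Signs turned without control white matter 1 and 3 for ARC (0.28) and NR4A1 (0.029) in fWBI white matter. With the covariate they turned for ARC there (0.019) and in fWBI against TBI hippocampus for EGR2 (-0.16), JUNB (-0.091) and NR4A1 (-0.15). In control animals alone NPAS4 was 0.73 in white matter against hippocampus and JUNB -0.28 in white matter against prefrontal cortex. None of these values had been called. Leaving out 1 library turned values near 0: JUNB in fWBI hippocampus ran from -0.17 to 0.030, FOSB in fWBI prefrontal cortex from -0.33 to 0.18 and JUNB from -0.022 to 0.19; in fWBI against TBI hippocampus EGR2 ran from -0.094 to 0.27, JUNB from -0.037 to 0.10 and NR4A1 from -0.061 to 0.23; JUNB in TBI hippocampus ran from -0.19 to 0.0037, JUNB in TBI prefrontal cortex from -0.16 to 0.091 and NPAS4 there from -0.39 to 0.13.

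Counts over all genes moved by more than 1.5 times as well. DESeq2 called 277, 466, 740, 135, 93 and 70 genes in fWBI hippocampus, fWBI prefrontal cortex, TBI white matter, fWBI against TBI hippocampus, fWBI against TBI prefrontal cortex and the TBI effect by region, against 114, 182, 11, 52, 45 and 1 by edgeR. In fWBI white matter 1687 were called without control animals 1 and 3 and 1657 with the 2 groups alone, against 2567. With the replicate block, 293 genes were called in fWBI prefrontal cortex, 56 in TBI prefrontal cortex, 0 in TBI white matter and 30 in fWBI against TBI hippocampus, against 182, 0, 11 and 52. The mean of at least 50 counts gave 68 in fWBI hippocampus, 94 in fWBI prefrontal cortex, 31 in fWBI against TBI hippocampus and 21 in fWBI against TBI prefrontal cortex. The 2 groups alone gave 73 in fWBI hippocampus and 5 in TBI white matter. The covariate gave 1763 in fWBI against TBI white matter (1122 without it), 21 in TBI prefrontal cortex and 0 in TBI white matter. Without control animals 1 and 3 the fWBI effect by region called 906, against 1512, while TBI white matter and the TBI effect by region called 0. Control animals alone gave 2319 genes in hippocampus against prefrontal cortex (8435 in all animals) and 8632 in white matter against hippocampus (13531). With 1 library left out, counts ran from 72 to 266 in fWBI hippocampus, 73 to 220 in fWBI prefrontal cortex, 1756 to 3048 in fWBI white matter, 0 to 23 in TBI prefrontal cortex, 0 to 25 in TBI white matter and 887 to 1867 for the fWBI effect by region. Depth limits FOSB and NPAS4 most over all libraries, and EGR2 in TBI white matter (1 to 5 reads a library). Without a count filter NPAS4 was called in fWBI white matter (-2.64, adjusted p = 0.0355), where control animals 1 and 3 hold most of its control reads.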
